A study of Mus musculus with 18 samples.

Results

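Secreted Wnt inhibitors and Wnt ligands were followed in the prostates of TRAMP mice with and without mutations in Elac2, the gene of a nuclease that trims the 3′ ends of precursor tRNAs. The group held 10 genes, found in the deposited tables by the Ensembl identifiers of their symbols, of 55469 genes listed. It comprised 6 secreted inhibitors (Sfrp1, Sfrp2, Sfrp4, Sfrp5, Frzb and Wif1), 3 ligands (Wnt4, Wnt5a and Wnt9a) and 1 feedback target (Axin2). RNA of the ventral and lateral prostate lobes was sequenced from 18 male mice, each with 1 copy of the TRAMP transgene. The methods of the study print the background of the Elac2 mutant lines as C56NL/6N. These lines were bred with TRAMP mice, whose background is not stated. TRAMP drives the large-T and small-t antigens of a virus from the probasin promoter in prostate epithelium, so the controls develop tumours too. WT-TRAMP mice carried wild-type Elac2 on both alleles. KO-TRAMP mice were homozygous for a floxed exon of Elac2 removed by Pb-Cre, a deletion that the study describes as specific to the prostate. The probasin promoter of Pb-Cre is active in prostate epithelium, and Elac2 was not measured separately in the stroma. A537T-TRAMP mice were homozygous throughout the body for the missense change A537T, an alanine replaced by threonine in the ELAC2 protein. Lobes were taken at 2 ages, 10 weeks and 30 weeks, from 3 mice in each of the 6 groups. The methods of the study describe the mice as matched for age and litter, but the labels do not tie single libraries to litters, so litter could not enter the tests and p-values measure the spread between these samples.

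Wnt ligands are lipid-modified secreted proteins that bind Frizzled receptors and LRP co-receptors on nearby cells. In the canonical branch, β-catenin then escapes destruction, enters the nucleus with TCF/LEF factors and switches on targets such as Axin2, which feeds back on the pathway as a scaffold of the destruction complex. Secreted Frizzled-related proteins (the Sfrp genes and Frzb) and Wif1 bind ligands outside the cell. In the prostate, ligands and inhibitors come largely from the stroma, and Wnt signals take part in the budding of the gland and in exchange between stroma and epithelium.

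Libraries are called by their number in the deposited tables. The WT-TRAMP libraries were 1 to 3 at 10 weeks and 10 to 12 at 30 weeks. Those of KO-TRAMP were 7 to 9 and 16 to 18, and those of A537T-TRAMP 4 to 6 and 13 to 15. They held 9380174 to 14830104 reads assigned to genes. Reads throughout are whole numbers of estimated reads recovered from the deposited values, not raw reads. Both mutant lines of an age were compared with the same WT-TRAMP libraries, in tables that were scaled separately, so the comparisons are not independent of each other. Values are normalized counts, that is reads divided by 1 size factor per library. Differences are log2(normalized count + 1) of the mutant line minus WT-TRAMP, each given with a standard error (SE). Adjusted p-values are those of limma, adjusted by Benjamini-Hochberg over all genes tested. Elac2 itself was at 249 to 301 in KO-TRAMP and 251 to 359 in WT-TRAMP libraries over both ages, with log2 differences of −0.22 (adjusted p = 0.808) at 10 weeks and −0.19 (adjusted p = 0.522) at 30 weeks by limma. This count covers the whole gene in all cells of the lobe and does not measure the deleted exon. Seminal vesicle markers, a tissue that was dissected away, were summed at 12 to 1156800 across libraries, and neuroendocrine markers set libraries 17 and 18 (13394 and 8444) apart from library 16 (301).

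Mean levels per length, given as RPKM (reads scaled to library depth and to exon length, computed here from the recovered reads), ran from 4.50 for Wif1 to 0.0330 for Sfrp4 in the youngest controls. In WT-TRAMP at 10 weeks the order began with Wif1 (4.50 ± 1.81, SD, n = 3), Wnt4 (3.87 ± 2.29), Axin2 (2.14 ± 1.92), Sfrp1 (1.92 ± 0.107) and Sfrp2 (1.36 ± 0.594). Each of these 5 genes overlapped with its neighbour in that order. Wnt5a (0.597 ± 0.251) and Wnt9a (0.336 ± 0.0992) came next, and Sfrp5, Frzb and Sfrp4 were close to the limit of detection, with 0 to 9 reads per library. In WT-TRAMP at 30 weeks Wnt4 (9.19 ± 1.78) and Axin2 (7.98 ± 0.797) came first and overlapped, followed by Wif1 (5.62 ± 1.47), Sfrp1 (4.57 ± 0.259), Sfrp2 (2.47 ± 0.173) and Wnt5a (1.25 ± 0.335). Sfrp1, Sfrp2 and Wnt5a were separated from one another without overlap. In KO-TRAMP at 30 weeks the order differed, with Sfrp1 (18.4 ± 11.1) and Sfrp5 (12.0 ± 11.4) at the top, although Sfrp5 spanned 0.281 to 23.0 in the 3 libraries. In A537T-TRAMP at 30 weeks Wnt4 (11.02 ± 3.05) and Sfrp1 (8.32 ± 0.983) led. The tables of the lines were scaled separately and these orders were not tested.

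**Figure D1:**
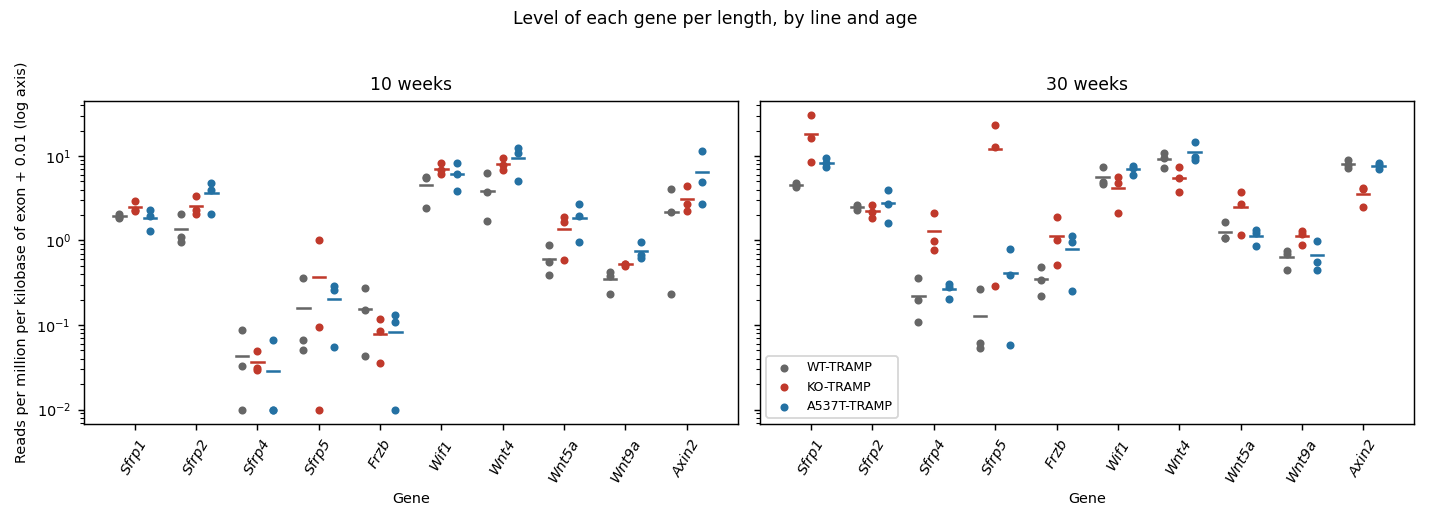
Level per length of each member as RPKM (reads scaled to depth and exon length) plus 0.01, on a log axis, at 10 weeks (left) and 30 weeks (right). Points are libraries and short lines are means of 3 libraries of WT-TRAMP (grey), KO-TRAMP (red) and A537T-TRAMP (blue). Sfrp4, Sfrp5 and Frzb are the lowest members at 10 weeks, and Sfrp1 and Sfrp5 have the highest means in KO-TRAMP at 30 weeks.

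No member passed an adjusted p of 0.05 by limma in any of the 4 comparisons with WT-TRAMP. A mean normalized count of at least 10, needed for a test, was reached by 7 members in each table of 10 weeks, by all 10 in the KO-TRAMP table of 30 weeks and by 9 in the A537T-TRAMP table of 30 weeks. Few genes of any kind passed. For KO-TRAMP the share of all genes called was 0.0129% at 10 weeks and 0.213% at 30 weeks. For A537T-TRAMP it was 0.00648% and 0.0%. With an unadjusted p under 0.05 the members numbered 2 and 5 in KO-TRAMP at 10 and 30 weeks (6.64% and 13.5% of all genes tested) and 4 and 1 in A537T-TRAMP (7.89% and 7.21%). Below, values of single members are therefore given as measured, with their intervals.

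**Figure D2:**
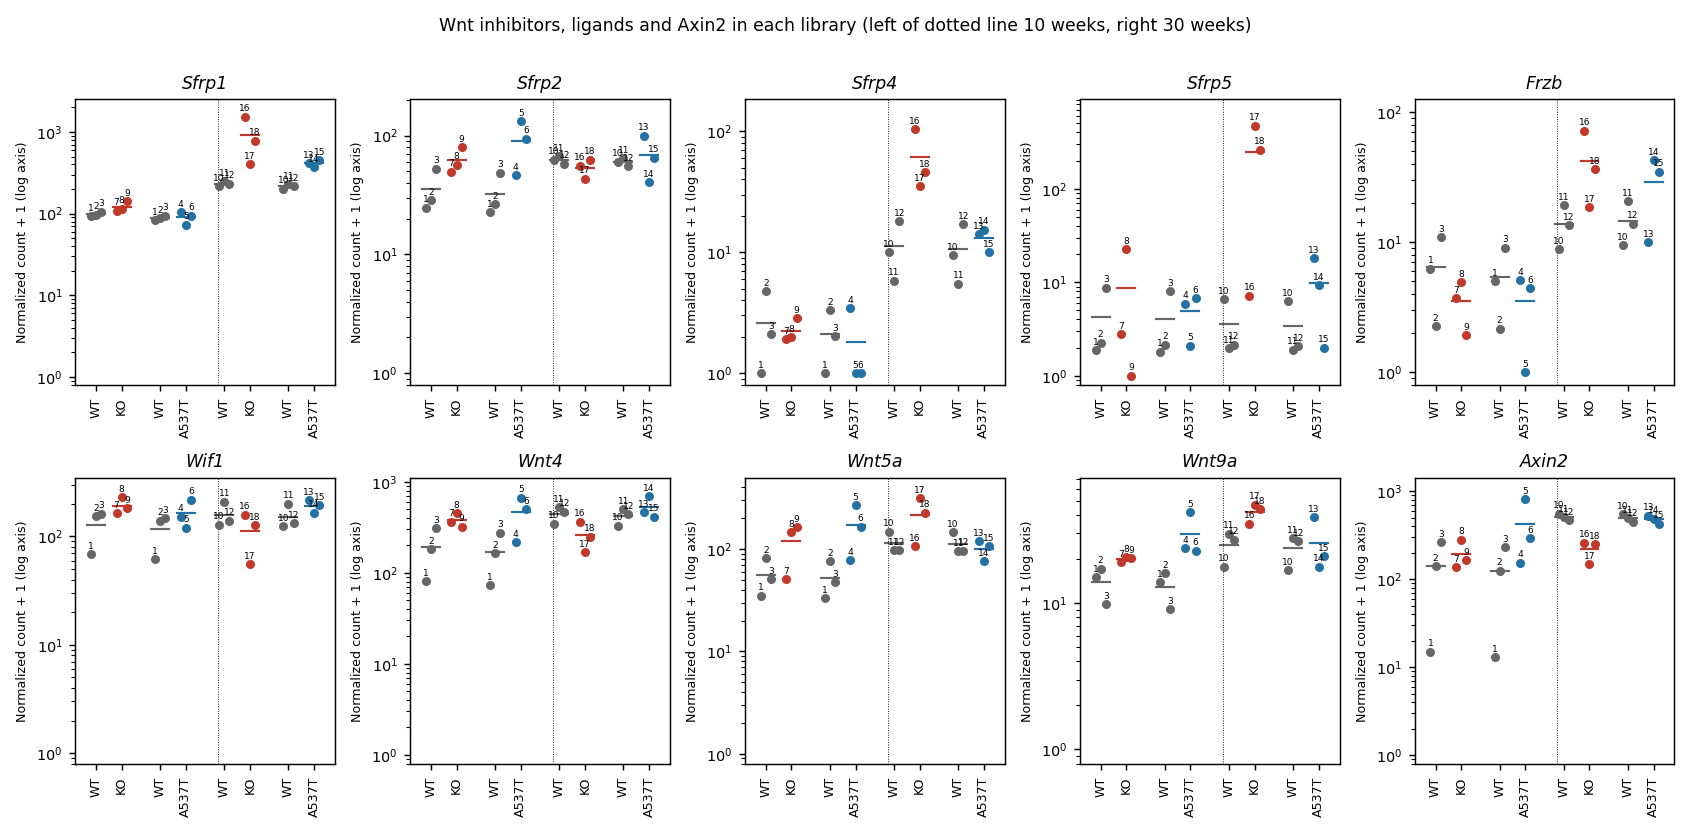
Normalized count plus 1 on a log axis for each member. Points are libraries, labelled with their number, and lines are group means of 3 libraries. Each mutant group stands to the right of the WT-TRAMP libraries of its own table, so WT-TRAMP libraries appear in 2 tables. Sfrp1 in the 3 KO-TRAMP and 3 A537T-TRAMP libraries of 30 weeks lies above all WT-TRAMP libraries, and Axin2 in KO-TRAMP at 30 weeks lies below them.

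Sfrp1 (ENSMUSG00000031548.7, GRCm38 chromosome 8, 23411502 to 23449632, plus strand), a secreted Frizzled-related inhibitor made by prostate stroma, was the one member that stood apart from its controls in both lines at 30 weeks. Its normalized count was 215, 248 and 233 in WT-TRAMP. In KO-TRAMP it was 1532 in library 16, 399 in library 17 and 782 in library 18. The groups did not overlap, and the mean of KO-TRAMP was 3.90 times that of WT-TRAMP. The log2 difference was 1.75 (SE 0.46, 95% confidence interval 0.63 to 2.88, adjusted p = 0.304 by limma). In the A537T-TRAMP table the same WT-TRAMP libraries read 200.2, 229 and 215, and A537T-TRAMP libraries 13 to 15 read 414, 369.7 and 451. These groups were also apart, with tighter values in the mutant than in KO-TRAMP, and a log2 difference of 0.93 (SE 0.12, interval 0.64 to 1.22, adjusted p = 0.179 by limma). DESeq2 on the recovered reads called Sfrp1 in both lines at 30 weeks, with log2 differences of 1.96 (adjusted p = 0.00287) and 0.93 (adjusted p = 7.8e-06). Among all genes DESeq2 called 4.76% for KO-TRAMP and 1.01% for A537T-TRAMP at that age. edgeR called 0.0888% and 0.0%, and no member. With single libraries left out, limma's adjusted p of Sfrp1 fell under the threshold in KO-TRAMP without library 16 (1.27, adjusted p = 0.0396) and in A537T-TRAMP without control library 11 (0.98, adjusted p = 0.0476). Without library 16 limma called 3064 genes of any kind in KO-TRAMP, against 36 with all libraries. In A537T-TRAMP fits without a single library called up to 145, against 0. With library 16 as the only KO-TRAMP library the difference was 2.72, a value whose spread would come from the controls alone.

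The separation of Sfrp1 was not seen at 10 weeks in A537T-TRAMP. There it was 81.9, 86.4 and 92.9 in WT-TRAMP and 103, 71.8 and 92.9 in A537T-TRAMP, with a log2 difference of 0.02 (SE 0.21, adjusted p = 0.977 by limma). In KO-TRAMP of 10 weeks it was 107, 114 and 141 against 91.8, 96.2 and 105, a log2 difference of 0.29 (SE 0.17, adjusted p = 0.802 by limma) without overlap of the groups. The effect at 30 weeks minus that at 10 weeks was 1.46 (SE 0.51, adjusted p = 0.304) in KO-TRAMP and 0.91 (SE 0.22, adjusted p = 0.738) in A537T-TRAMP by limma's interaction, so neither difference between ages passed the threshold. Of all genes tested for it, 0.0% passed in either line.

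Markers of fibroblasts, the main cells of connective tissue, moved with Sfrp1 at 30 weeks. The sum of 8 fibroblast markers (Dcn, Lum, Pdgfra, Pdgfrb, Col1a1, Col1a2, Col3a1 and Mfap5) was 17220 to 22814 in KO-TRAMP against 4397 to 5001 in WT-TRAMP, and 6841 to 11377 in A537T-TRAMP against 4183 to 4763 in the same controls. None of the 8 was at 0 in any library. At 10 weeks these sums were 3657 to 5612 in KO-TRAMP and 3143 to 4702 in WT-TRAMP, and 4935 to 6595 in A537T-TRAMP against 2851 to 4314, so in that line they stood above the controls while Sfrp1 did not. Other cell types moved at 30 weeks as well. The sum of 5 macrophage markers (Adgre1, Cd68, Csf1r, Lyz2 and C1qa) was 2563 to 3040 in KO-TRAMP against 918 to 1216, and 1208 to 2116 in A537T-TRAMP against 882 to 1192. The sum of 5 endothelial markers (Pecam1, Cdh5, Kdr, Tie1 and Emcn) was 539 to 859 in KO-TRAMP against 321 to 350.0, and overlapped with the controls in A537T-TRAMP (278 to 567 against 290.0 to 317). None of these markers was at 0. Adipose markers (Adipoq, Plin1, Cidec, Lep and Fabp4) went the other way in A537T-TRAMP. Their sum was 25 to 107 there against 333 to 993 in the controls. In KO-TRAMP it was 48 to 483 and overlapped with the controls (352 to 1062). Up to 3 of the 5 were at 0 in a mutant library. The part of any of these cell types in the Sfrp1 values was not tested, and in whole lobes more cells of a type and more RNA per cell cannot be told apart.

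Sfrp4 and Frzb, 2 further inhibitors of this family, were low at 10 weeks and detectable at 30 weeks. Sfrp4 (ENSMUSG00000021319.7, chromosome 13, 19623104 to 19632994, plus strand) was at 0 to 3.75 in all libraries of 10 weeks. At 30 weeks it was 8.95, 4.80 and 17.1 in WT-TRAMP and 103, 34.3 and 44.9 in KO-TRAMP. The groups were apart, with the highest value again in library 16, and the log2 difference was 2.44 (SE 0.61, interval 0.96 to 3.93, adjusted p = 0.285 by limma). DESeq2 called it (2.56, adjusted p = 0.0201). In A537T-TRAMP it was 13.1, 14.3 and 8.97, within the range of its WT-TRAMP libraries (8.43, 4.48 and 16), with a log2 difference of 0.43 (SE 0.58, adjusted p = 0.898 by limma).

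Frzb (ENSMUSG00000027004.3, chromosome 2, 80411970 to 80447625, minus strand) followed the same order of libraries in KO-TRAMP. It was 71.0, 17.5 and 35.5 in libraries 16 to 18 and 7.83, 18.2 and 12.5 in WT-TRAMP, so that library 17 fell inside the control range. The log2 difference was 1.47 (SE 0.61, interval −0.01 to 2.94, adjusted p = 0.369 by limma). In A537T-TRAMP it was 9.01, 41.7 and 33.9 against 8.43, 19.7 and 12.8, and the groups overlapped (log2 difference 0.82, SE 0.64, adjusted p = 0.803 by limma). At 10 weeks Frzb did not exceed 9.91 in any library, and it was not tested there.

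Sfrp5 (ENSMUSG00000018822.7, chromosome 19, 42197971 to 42202252, minus strand), an inhibitor known from gut endoderm and fat, was present in quantity in 2 libraries. At 30 weeks it was 5.59, 0.960 and 1.14 in WT-TRAMP, 6.17 in KO-TRAMP library 16, and 472 and 261 in libraries 17 and 18. Library 16 was thus only just above the highest control. Over the group 904 estimated reads stood against 7 in WT-TRAMP, a scaled ratio of 110.0. Its exact 95% interval of 53.2 to 274 treats these estimates as counted reads and covers counting error only. The log2 difference was 4.99 (SE 1.62, interval 1.05 to 8.93, adjusted p = 0.338 by limma), and DESeq2 called it (6.59, adjusted p = 9.1e-05). Sfrp5 reached the mean of 10 needed for these tests only through libraries 17 and 18, so they add no support of their own. Without library 16 the difference was 6.86 (adjusted p = 0.00795 by limma), in a fit that called 3064 genes of any kind. In A537T-TRAMP it was 17.2, 8.35 and 0.997 at 30 weeks, overlapping with WT-TRAMP, and it was not tested because of its low mean. At 10 weeks the highest value was 21.5, in KO-TRAMP library 8, while KO-TRAMP library 9 had 0 reads.

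Libraries 17 and 18 were also those with high neuroendocrine markers. The sum of 6 markers (Chga, Chgb, Syp, Insm1, Ncam1 and Foxa2) was 13394 and 8444 there and 301 in library 16, where Chgb and Foxa2 were at 0. In WT-TRAMP of the same table it was 2915, 328 and 1543, with Chga and Insm1 at 0 in library 11. The sum of 4 basal epithelial markers was 2323 and 1630 in libraries 17 and 18, 319 in library 16 and 360.0 to 394 in WT-TRAMP. Smooth muscle markers were at 38511, 26846 and 7810 in libraries 17, 18 and 16 and at 15385 to 26618 in WT-TRAMP. Whether any of these cell types carried Sfrp5 was not tested.

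The regulatory sequence of members at the extremes of the 30-week KO-TRAMP comparison is shown for Sfrp5, the member with the largest positive difference, and Axin2, the one with the largest negative difference. RefSeq promoter sequences of GRCm38.p6 were matched for 7 members (Axin2, Frzb, Sfrp2, Sfrp5, Wif1, Wnt4 and Wnt9a) and not for Sfrp1, Sfrp4 and Wnt5a. The 250 bases before the RefSeq start of transcription are given 5′ to 3′ on the gene's strand. CG dinucleotides, the sites where promoter DNA can be methylated, are in capitals.
Sfrp5, chr19:42202253-42202502, minus strand: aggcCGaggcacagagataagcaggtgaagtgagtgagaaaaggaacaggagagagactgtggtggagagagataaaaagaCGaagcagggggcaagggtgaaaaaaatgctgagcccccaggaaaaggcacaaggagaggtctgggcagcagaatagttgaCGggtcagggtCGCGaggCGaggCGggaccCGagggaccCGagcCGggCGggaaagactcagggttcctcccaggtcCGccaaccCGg
Axin2, chr11:108920099-108920348, plus strand: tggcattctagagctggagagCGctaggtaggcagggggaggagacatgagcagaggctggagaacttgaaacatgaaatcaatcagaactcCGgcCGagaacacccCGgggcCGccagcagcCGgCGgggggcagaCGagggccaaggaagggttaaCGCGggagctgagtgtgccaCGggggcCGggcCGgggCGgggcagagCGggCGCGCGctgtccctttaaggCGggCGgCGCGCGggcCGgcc
Sfrp5 held 13 CG dinucleotides and Axin2 24, where the median of 32851 mouse promoters of this length was 6, and 31.5% and 12% of promoters held as many. Their GC content was 59.6% and 69.2% (median of all promoters 52.4%). Wnt4 and Wnt9a were richer still, with 44 and 48 CG dinucleotides. The TCF/LEF core, searched as either CTTTGA or CTTTGT on both strands, was found in 27.6% of all promoters. Among the 7 members it was found in Frzb only, as the reverse complement of CTTTGA that begins 95 bases before the RefSeq start. The Frzb window spans 80447397 to 80447646, and the GENCODE gene begins inside it at 80447625, so this match lies within that gene. The windows of Wnt4, Wif1 and Wnt9a also reach into their GENCODE genes. The absence of these letters from the Axin2 window concerns this window alone, and no methylation was measured here.

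Sfrp2 and Wif1, like Frzb, overlapped with their controls at 30 weeks in both lines. Sfrp2 (ENSMUSG00000027996.13, chromosome 3, 83766321 to 83774316, plus strand) was 61.5, 66.2 and 57.0 in WT-TRAMP and 54.5, 42.3 and 61.6 in KO-TRAMP, with a log2 difference of −0.23 (SE 0.24, interval −0.81 to 0.34, adjusted p = 0.625 by limma). In A537T-TRAMP it was 98.3, 39.4 and 63.8, on both sides of its controls (log2 difference 0.09, SE 0.33, adjusted p = 0.972 by limma). At 10 weeks its values lay higher in both lines. They were 48.6, 55.8 and 79.0 in KO-TRAMP against 23.6, 27.5 and 51.8 in WT-TRAMP (log2 difference 0.87, SE 0.35, adjusted p = 0.737 by limma). In A537T-TRAMP they were 45.6, 130.4 and 92.9 against 21.7, 25.3 and 47.5 (1.44, SE 0.47, adjusted p = 0.600 by limma). WT-TRAMP library 3 overlapped with 1 mutant library in each line.

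Wif1 (ENSMUSG00000020218.11, chromosome 10, 121033960 to 121100650, plus strand), which binds Wnt proteins through a domain of its own and is no Frizzled-related protein, was 128, 208 and 139 in WT-TRAMP and 157, 54.7 and 125 in KO-TRAMP at 30 weeks. Library 17 was the lowest of the 6, and the log2 difference was −0.59 (SE 0.43, adjusted p = 0.517 by limma). At 10 weeks it was 164, 228 and 181 in KO-TRAMP against 67.3, 154 and 162, with no overlap but a gap between libraries 3 and 7 far below the distance of library 1 from the other controls (0.67, SE 0.33, adjusted p = 0.767 by limma). In A537T-TRAMP Wif1 overlapped with its controls at both ages, with log2 differences of 0.55 (SE 0.39, adjusted p = 0.639) and 0.35 (SE 0.21, adjusted p = 0.757) by limma.

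**Figure D3:**
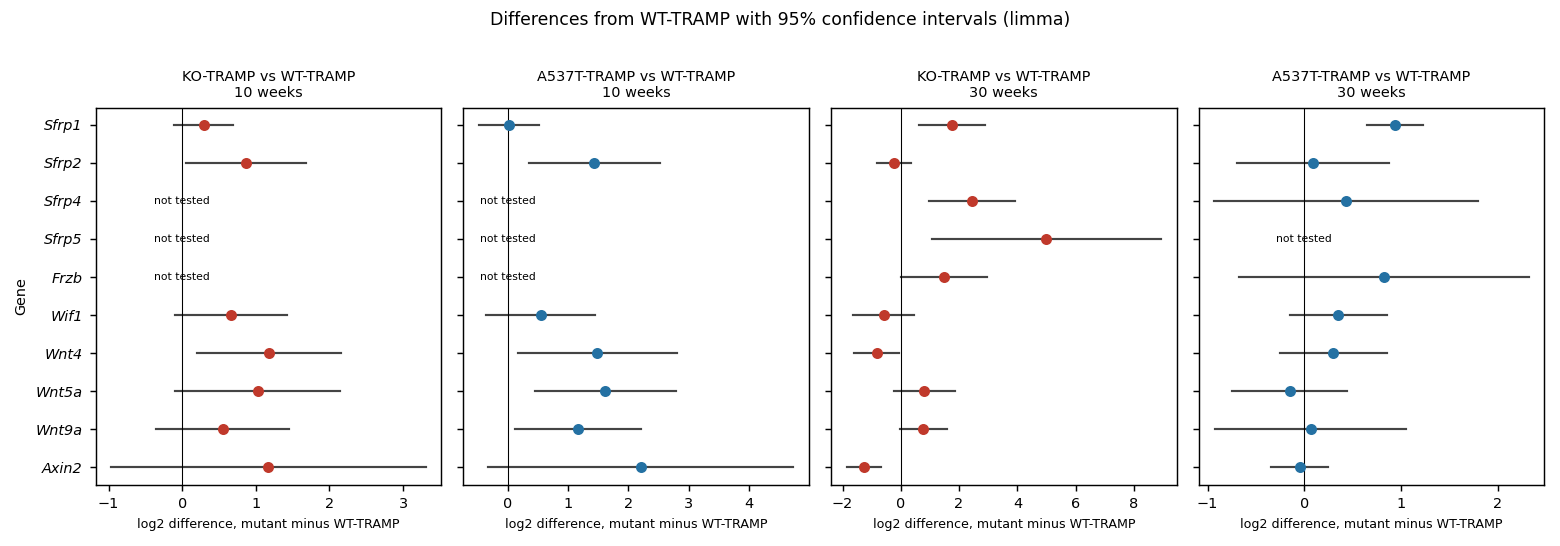
Difference of each member from WT-TRAMP on the log2(normalized count + 1) scale in the 4 comparisons. Points are limma estimates from 3 against 3 libraries, bars are 95% confidence intervals, and the horizontal scales differ between panels. All tested members lie to the right of 0 at 10 weeks. At 30 weeks in KO-TRAMP the intervals of Sfrp1 (0.63 to 2.88), Sfrp4 (0.96 to 3.93) and Sfrp5 (1.05 to 8.93) lie above 0, where Sfrp5 was tested only through libraries 17 and 18. Those of Axin2 (−1.86 to −0.68) and Wnt4 (−1.59 to −0.07) lie below it.

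Axin2 (ENSMUSG00000000142.15, chromosome 11, 108920349 to 108950783, plus strand), the feedback target, lay below its controls in KO-TRAMP at 30 weeks. It was 555, 507 and 464 in WT-TRAMP and 257, 146 and 248 in KO-TRAMP. Every KO-TRAMP library lay below every control, and the mean was 0.426 times that of WT-TRAMP. The log2 difference was −1.27 (SE 0.24, interval −1.86 to −0.68, adjusted p = 0.173 by limma), and DESeq2 called it (−1.24, adjusted p = 0.000822). Without library 16 it was −1.41 (adjusted p = 0.0235 by limma), in a fit that called 3064 genes of any kind. In A537T-TRAMP it was 528, 487 and 424 against 543, 492 and 450.2, a log2 difference of −0.05 (SE 0.13, interval −0.34 to 0.25, adjusted p = 0.956 by limma).

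At 10 weeks Axin2 varied widely between libraries of a group. It was 13.99, 139 and 262 in WT-TRAMP and 135, 279 and 164 in KO-TRAMP, and 12.0, 123 and 230.3 in WT-TRAMP against 152, 812 and 291 in A537T-TRAMP in the other table. Library 1 stood far below all the rest and library 5 far above. The log2 differences were 1.17 (SE 0.93, adjusted p = 0.853) in KO-TRAMP and 2.20 (SE 1.08, adjusted p = 0.600) in A537T-TRAMP by limma. Without library 1 the KO-TRAMP difference was −0.05. In the same 2 libraries smooth muscle markers were lowest and highest of the 10-week set, with sums of 4105 in library 1 and 29660 in library 5 of the A537T-TRAMP table, and library 5 also held the largest sum of seminal vesicle markers (1156800). Their part in the Axin2 values was not tested.

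Wnt4 (ENSMUSG00000036856.4, chromosome 4, 137277489 to 137299726, plus strand), a ligand best known from the development of kidney and female ducts, had the highest mean level per length of the 3 ligands in every group. It was 80.4, 181 and 307 in WT-TRAMP and 364, 452 and 319.6 in KO-TRAMP at 10 weeks, apart from one another, with a log2 difference of 1.18 (SE 0.42, interval 0.20 to 2.16, adjusted p = 0.716 by limma). At 30 weeks it was 347, 529 and 466 in WT-TRAMP and 363, 168 and 248 in KO-TRAMP, with library 16 inside the control range (−0.83, SE 0.31, interval −1.59 to −0.07, adjusted p = 0.361 by limma). The change of its effect between the ages was −2.01 (SE 0.60, adjusted p = 0.255 by limma), which did not pass. Without library 16 the difference at 30 weeks was −1.11 (adjusted p = 0.0395) and the change between ages −2.29 (adjusted p = 0.0354) by limma. That fit of 30 weeks called 3064 genes of any kind. Fits of the change between ages without a single library called up to 1764. A537T-TRAMP read 216, 666 and 496 against 72.3, 162 and 274 at 10 weeks (1.49, SE 0.56, adjusted p = 0.600 by limma) and 465, 696 and 412 against 328, 497 and 437 at 30 weeks (0.30, SE 0.23, adjusted p = 0.803 by limma).

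Wnt5a (ENSMUSG00000021994.15, chromosome 14, 28504750 to 28527448, plus strand), the main ligand of the branch that acts without β-catenin, was 32.1, 74.8 and 46.5 in WT-TRAMP and 76.5, 266 and 165 in A537T-TRAMP at 10 weeks. The gap between libraries 2 and 4 was narrow, and the log2 difference was 1.62 (SE 0.50, interval 0.45 to 2.78, adjusted p = 0.600 by limma). In KO-TRAMP it was 49.4, 146 and 162 against 34.1, 80.0 and 49.6 (1.02, SE 0.49, adjusted p = 0.756 by limma). At 30 weeks libraries 17 and 18 were high again, at 313 and 227, whereas library 16 (105) lay among the controls (147, 96.9 and 96.9). The log2 difference was 0.81 (SE 0.43, adjusted p = 0.421 by limma) with all 3 libraries, 1.25 (adjusted p = 0.0353 by limma) without library 16, and −0.08 with library 16 as the only KO-TRAMP library. The fit without library 16 called 3064 genes of any kind. A537T-TRAMP at 30 weeks read 119, 75.1 and 106 against 144, 94.2 and 94.9 (−0.15, SE 0.25, adjusted p = 0.926 by limma).

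Wnt9a (ENSMUSG00000000126.11, chromosome 11, 59306928 to 59333552, plus strand), a ligand of joint and skeletal development, was the lowest of the 3 ligands. It was 13.99, 16.2 and 8.81 in WT-TRAMP and 17.98, 19.6 and 19.3 in KO-TRAMP at 10 weeks, and 12.9, 14.97 and 8.08 against 22.8, 40.9 and 21.8 in A537T-TRAMP. Neither mutant group overlapped with its controls, but the counts were small, with 8 to 37 reads per library. The log2 differences were 0.55 (SE 0.39, adjusted p = 0.838) and 1.17 (SE 0.45, adjusted p = 0.600) by limma. At 30 weeks KO-TRAMP read 34.0, 45.9 and 42.8 against 16.8, 28.8 and 26.2, again without overlap (0.77, SE 0.33, interval −0.03 to 1.58, adjusted p = 0.376 by limma). A537T-TRAMP overlapped with its controls (0.07, SE 0.42, adjusted p = 0.983 by limma).

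As a group, the members shared their direction at 10 weeks. All 7 tested members had positive differences in both lines, with a median log2 difference of 0.87 for KO-TRAMP and 1.44 for A537T-TRAMP, beside −0.01 over all genes in each line. Both lines were set against the same 3 controls, of which library 1 was the lowest for Sfrp1, Sfrp2, Wif1, Wnt4, Wnt5a and Axin2. In KO-TRAMP 4 members and in A537T-TRAMP 2 lay above all WT-TRAMP libraries, where 5.77% and 6.92% of all genes did. At 30 weeks the directions divided. In KO-TRAMP 6 members had positive and 4 (Sfrp2, Wif1, Wnt4 and Axin2) negative differences, with 4 above and 1 below all controls, against 10.8% and 9.48% of all genes. Sfrp5, among those above, entered the test only through libraries 17 and 18. In A537T-TRAMP the median was 0.30, and Sfrp1 was the single member apart from its controls (7.36% of all genes lay above).

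Sums of 8 smooth muscle markers (Acta2, Myh11, Cnn1, Des, Tagln, Actg2, Lmod1 and Synpo2) lay above the controls in both lines at 10 weeks. They were 4615 to 7909 in WT-TRAMP and 8494 to 13272 in KO-TRAMP, and 4105 to 7046 in the same controls against 10513 to 29660 in A537T-TRAMP. Library 5, with the highest of these sums, had the lowest Sfrp1 (71.8) and Wif1 (119) of its group. Sfrp2, Wnt4, Wnt5a, Wnt9a and Axin2 were highest there. The sum of 10 luminal epithelial markers moved the other way in KO-TRAMP, at 158641 to 171781 against 279565 to 369085 in WT-TRAMP without overlap. In A537T-TRAMP it was 359128, 30742 and 187141 in libraries 4, 5 and 6 against 249540 to 331305, so that library 4 stood above the controls and libraries 5 and 6 below. None of the smooth muscle or luminal markers was at 0. Seminal vesicle markers also stood above the controls, at 100 to 180184 in KO-TRAMP against 21 to 54. In A537T-TRAMP they were at 5025 to 1156800 against 19 to 49, and up to 5 of the 9 were at 0 in a control. Neuroendocrine sums were 414 to 695 in KO-TRAMP against 84 to 382 and overlapped in A537T-TRAMP. Endothelial sums overlapped in KO-TRAMP and were 180 to 357 in A537T-TRAMP against 91 to 142. The part of all these markers in the values of the ligands and inhibitors was not tested.

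**Figure D4:**
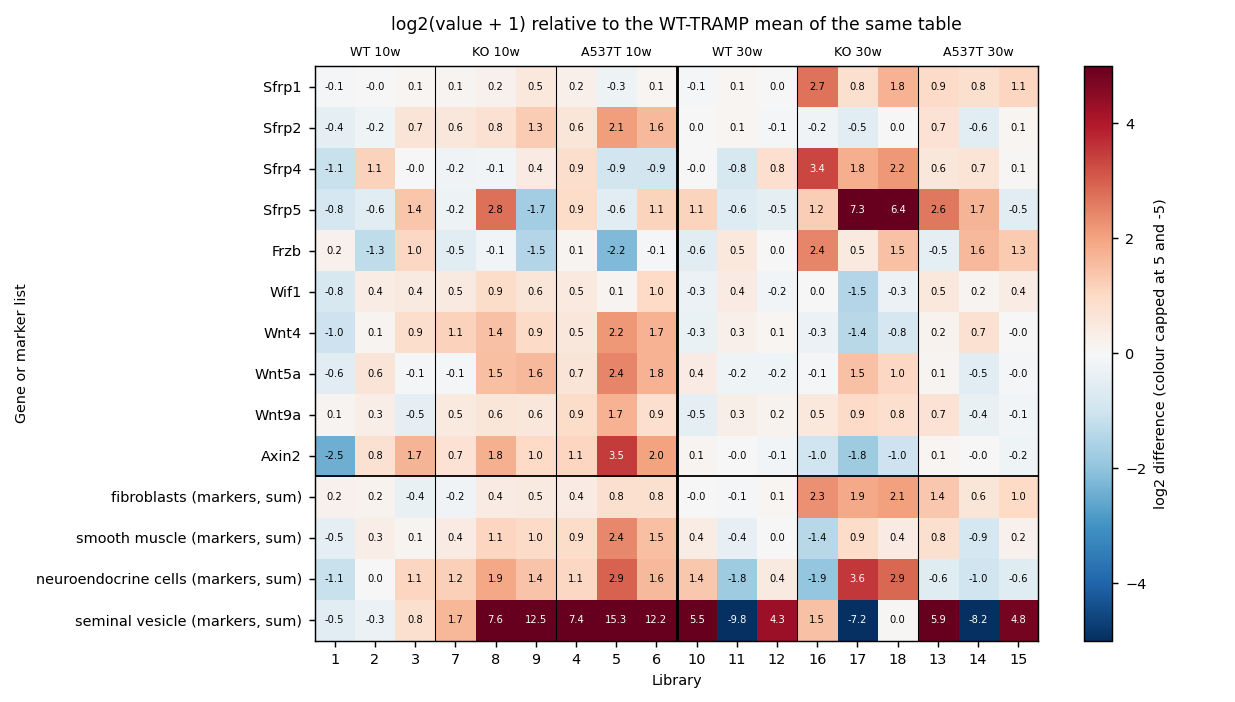
log2(value + 1) of each member and of the summed markers of 4 cell types or tissues in each of the 18 libraries, relative to the WT-TRAMP mean of the same table, as colour and number. WT-TRAMP libraries are taken from the KO-TRAMP tables. Libraries 17 and 18 stand out for Sfrp5 and neuroendocrine markers, library 16 for Sfrp1, Sfrp4 and Frzb, and library 1 for low Axin2.

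Across the 18 libraries the pattern of the 7 members with a mean of at least 10 in all 4 tables, which leaves out Sfrp4, Sfrp5 and Frzb, was compared with that of 14970 other genes, as the mean absolute difference of their log2 values relative to WT-TRAMP. This is a description, and the libraries share scaling and controls. The closest to Sfrp1 were Mrc1 (0.21), a macrophage receptor gene, and Olfml3 (0.25), where the median gene was at 0.64. Sfrp2 was closest to Smoc2 (0.21, median gene 0.66) and Wif1 to Pdgfc (0.20, median gene 0.56). Wnt4 was closest to Adgrg6 (0.18, median gene 0.83) and Wnt9a to Plod1 (0.25, median gene 0.63). Wnt5a lay nearest to Olfm1 (0.27) and to Des (0.30), a smooth muscle marker (median gene 0.80). Axin2 was nearest to Adora1 (0.34, median gene 1.13) and, among the members compared, to Wnt4 (0.50). Of the 21 pairs of these 7 members, Sfrp1 and Axin2 had the largest distance (1.47).

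The other genes of the pathway were examined in 7 lists of 76 genes in all, covering ligands, inhibitors, ligand secretion, receptors, R-spondins with their receptors, intracellular transducers, and feedback or target genes. At 10 and 30 weeks 50 and 55 of them were tested for KO-TRAMP, and 52 and 54 for A537T-TRAMP. None passed an adjusted p of 0.05 by limma. An unadjusted p under 0.05 was reached by 6 genes (all higher) and 8 genes (1 higher, 7 lower) for KO-TRAMP, beside 6.64% and 13.5% of all genes. For A537T-TRAMP it was reached by 7 (5 higher, 2 lower) and 4 (3 higher, 1 lower), beside 7.89% and 7.21%. The medians of the log2 differences were 0.10 and −0.08 for KO-TRAMP and 0.20 and 0.05 for A537T-TRAMP, where the medians over all genes lay between −0.01 and 0.01.

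Rspo2, an R-spondin that strengthens Wnt signals by protecting Frizzled receptors from removal, came closest to the threshold. It had 29, 28 and 37 reads in WT-TRAMP at 30 weeks and 1, 2 and 1 in KO-TRAMP. The 4 estimated reads of KO-TRAMP against 94 amount to 3.63% of the WT-TRAMP level after scaling. The exact 95% interval of 0.968% to 9.60% treats these estimates as counted reads and covers counting error only. The log2 difference was −3.98 (SE 0.53, adjusted p = 0.0684 by limma), and both edgeR (adjusted p = 0.0472) and DESeq2 (adjusted p = 2.7e-05) called it. A537T-TRAMP had 34, 19 and 19 reads, with a log2 difference of −0.43 (SE 0.31, adjusted p = 0.794 by limma). At 10 weeks it had 0 to 19 reads per library and was not tested.

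Tnfrsf19, a receptor gene known as a target of β-catenin, lay below its controls in KO-TRAMP at 30 weeks, at 495, 368 and 343 against 662, 637 and 560 (−0.64, SE 0.17, adjusted p = 0.310 by limma, and 0.0487 by DESeq2). Gsk3b, a kinase of the destruction complex, and the receptor gene Fzd1 lay above theirs by 0.26 (SE 0.10, adjusted p = 0.363) and 0.49 (SE 0.21, adjusted p = 0.370) by limma. In A537T-TRAMP at 30 weeks the stem cell receptor gene Lgr5 was 118, 165 and 136 against 73.8, 88.8 and 96.01 (0.68, SE 0.19, adjusted p = 0.576 by limma). Tcf7, which encodes a TCF/LEF factor, also lay above its controls (0.64, SE 0.23, adjusted p = 0.673 by limma).

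At 10 weeks Fzd2 and Nkd1 had the smallest unadjusted p among the pathway genes above their controls in each line, with the controls shared between the lines. The receptor gene Fzd2 was 36.0, 49.0 and 33.1 in KO-TRAMP against 7.87, 13.7 and 19.8, and 19.5, 68.5 and 45.9 in A537T-TRAMP against 7.23, 12.7 and 18.2. Its log2 differences were 1.51 (SE 0.40, adjusted p = 0.710) and 1.65 (SE 0.56, adjusted p = 0.600) by limma. Nkd1, a feedback inhibitor induced by Wnt signals, differed by 1.25 (SE 0.37, adjusted p = 0.716) and 1.91 (SE 0.76, adjusted p = 0.600) by limma, and in A537T-TRAMP library 5 held 332 against 36.6 and 64.2 in libraries 4 and 6. Downward, the receptor gene Fzd5 differed by −0.17 (adjusted p = 0.780) and −0.49 (adjusted p = 0.600) by limma, the kinase gene Csnk1a1 by −0.15 (adjusted p = 0.789) in KO-TRAMP, and the R-spondin receptor gene Lgr4 by −0.29 (adjusted p = 0.600) in A537T-TRAMP.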

How the data were processed

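Total RNA of 18 libraries (3 per line and age) was read from 4 deposited tables, each of 1 mutant line and its WT-TRAMP controls at 1 age. Per the labels and the methods of the study, the authors trimmed reads with Trim Galore 0.4.1 and cutadapt 1.18, aligned them with STAR 2.7.3a to GRCm38.p6 and quantified genes with Salmon, counting by strand. The deposited values are a signal: estimated counts divided by 1 DESeq2 (1.26) size factor per library. All values (100.0%) were whole multiples of a library's step within 0.01 read, so whole numbers of estimated reads were recovered. They are not raw reads, because the same library can differ between tables (Sfrp1 in library 1 at 10 weeks: 105 and 102). Of the genes above 0 in WT-TRAMP libraries, 30.9% to 37.6% had identical reads in both tables of an age, so tests stayed within a table. The columns present in both tables of an age were taken as WT-TRAMP. Their headers carry no replicate numbers. The 4 tables of the authors' own comparisons were not used.

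Each line was compared with WT-TRAMP by limma 3.58.1 (lmFit, eBayes with trend, R 4.3.3) on log2(normalized count + 1) for genes with a mean of at least 10, two-sided, Benjamini-Hochberg threshold 0.05. This scale understates changes of low genes. Effects of both ages were compared as an interaction over 12 libraries. An exact permutation test of 3 against 3 cannot go below 0.1. The alternatives were a pseudocount of 10, no filter, array weights, edgeR 4.0.16 and DESeq2 1.42.0 on recovered reads, and leaving libraries out. The test was run on simulated counts with a single fixed dispersion for all genes. This checks the code and not how the test performs on libraries that spread as these do. Named pathway genes are, per comparison and direction, up to 2 of smallest unadjusted p whose groups do not overlap. The members and lists were chosen with earlier results of these data known. From the neuroendocrine marker list 1 gene was left out and is not reported here. The study matched mice for age and litter, but the labels do not tie libraries to litters. Coordinates are GENCODE positions on GRCm38 from a supplied release earlier than the authors' own.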

Additional observations from a re-analysis of the deposited data

How the results depend on the processing

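No paired analysis was possible because the table columns carry no replicate numbers. Of 664 values of single genes under the alternatives, 603 kept direction and side of the threshold, 41 gained significance and 20 changed sign. The cause of these changes was not tested. None of these genes passed the threshold in limma's comparisons above, so none could lose significance, and the 603 do not measure robustness of a call. With 0 members called by limma in each comparison, array weights called 8 at 30 weeks and 3 for the change between ages in KO-TRAMP, 2 and 4 in A537T-TRAMP, with an estimate of the weights that did not converge. The same weights raised the calls over all genes as well, and those counts, given below, belong beside these. DESeq2 called 4 and 1 at 30 weeks. Leaving out single libraries of 30 weeks gave 0 to 5 members for KO-TRAMP (5 without library 16: Sfrp1, Sfrp5, Wnt4, Wnt5a and Axin2), 0 to 1 for A537T-TRAMP (Sfrp1 without library 11) and 0 to 1 for the KO-TRAMP change between ages (Wnt4 without library 16). Without library 16, 3064 genes of any kind were called in KO-TRAMP at 30 weeks. Without libraries 17 and 18, an alternative chosen after seeing the data that assumes library 16 varies like its controls, 1 member (Sfrp1, 2.72) passed in a fit whose spread rests on the controls alone, Wif1 was 0.03 and Wnt5a −0.08.

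Counts of all genes called moved too. At 10 weeks the 2 genes of KO-TRAMP became 0 (edgeR), 81 (DESeq2) and 1 to 9 (single libraries left out), and the 1 gene of A537T-TRAMP became 4 (array weights), 0 (edgeR), 148 (DESeq2) and 0 to 65. At 30 weeks the 36 genes in KO-TRAMP, of 16900 tested, became 10748 (array weights), 15 (edgeR), 805 (DESeq2) and 0 to 3064, the last without library 16. The 0 genes in A537T-TRAMP, of 16261 tested, became 3388 (array weights), 165 (DESeq2) and 0 to 145. The 0 genes for the change between ages became 4668 (array weights) and 0 to 1764 for KO-TRAMP, and 1573 and 0 to 5 for A537T-TRAMP. For this change 15252 genes were tested in KO-TRAMP and 15242 in A537T-TRAMP.

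With array weights, Sfrp2 was 0.07 for KO-TRAMP, and for A537T-TRAMP, both at 30 weeks, Sfrp4 was −0.49, Wnt4 −0.01, Wnt5a 0.10 and Wnt9a −0.22. Leaving out single libraries, differences ran from −0.05 to 2.01 for Axin2 (KO-TRAMP) and −0.09 to 0.16 for Sfrp1 and −0.19 to 0.01 for Elac2 (A537T-TRAMP) at 10 weeks. At 30 weeks those of A537T-TRAMP ran from −0.23 to 0.42 for Sfrp2, −0.29 to 0.05 for Wnt5a, −0.27 to 0.30 for Wnt9a, −0.12 to 0.04 for Axin2 and −0.06 to 0.11 for Elac2. The means of Sfrp4, Sfrp5 and Frzb at 10 weeks were too low for a test.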
